A study of Homo sapiens with 4 samples.

Results

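The mitochondrial genome and MIR4485, a nuclear microRNA gene on chromosome 11, were examined in ATAC-seq libraries of HEK293T cells, an established human embryonic kidney line. In ATAC-seq the transposase Tn5 cuts exposed DNA, so the number of fragments at a site reports its accessibility. The members are the 37 rows of the promoter count table whose NCBI Gene ID lies on the mitochondrial genome (13 protein-coding, 2 rRNA and 22 tRNA genes) plus the row of MIR4485, in all 38 of 28775 rows. Each row holds fragment counts for 4 libraries: 2 of HEK293T cells left wild type (WT) and 2 in which MORC2, an ATPase of gene silencing, was knocked out (KO). Each KO library came from its own pool of cells, neither a single clone, edited with 1 of 2 guide RNAs, so that a difference between the guides and one between the KO replicates cannot be told apart. The libraries are called KO1, KO2, WT1 and WT2 below, by group and replicate. Both WT libraries were independent replicates with no guide in the labels, and the study gives no age, treatment or time that differs between the groups. The members were chosen with their KO against WT values known, which were lower in KO on the scale of nuclear counts, so these differences are given below as descriptions, without a test.

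Mitochondrial DNA is a small circular genome present in many copies per cell, packaged by the protein TFAM rather than by nucleosomes, and Tn5 cuts it readily when mitochondria are carried through cell lysis. It encodes subunits of respiratory complexes I, III, IV and V, together with the rRNAs and tRNAs that translate them. All proteins that copy, pack and transcribe it are encoded in the nucleus. MIR4485 lies in a nuclear copy of mitochondrial DNA, and the microRNA it is named for matches the mitochondrial 16S rRNA, the product of RNR2. Its sequences, read from RefSeq on GRCh38.p14, are shown because the mature strand is the stretch known to match the mitochondrial gene. The hairpin lies at chr11:10508270-10508326 on the minus strand, and the mature strand at chr11:10508277-10508296. In the first line below, the capitals mark the seed, bases 2 to 8, and in the second line they mark the mature strand within the 57-base hairpin.
hsa-miR-4485-3p: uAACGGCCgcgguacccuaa
MIR4485 hairpin: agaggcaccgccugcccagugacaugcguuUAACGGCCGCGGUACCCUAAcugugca
The seed was shared with 0 of the other 2544 mature microRNAs in the RefSeq table. A deposited count does not say which copy a fragment came from, so the count of MIR4485 is uncertain in that respect.

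The mitochondrial count differed far less between libraries than the nuclear count. Summed over the 37 rows, it was 3578987 in KO1, 3116612 in KO2, 3470423 in WT1 and 3316192 in WT2. The highest library lay 1.15 times above the lowest, and the coefficient of variation over the 4 libraries was 5.95%. KO1 was the highest library and KO2 the lowest, so that the WT libraries lay between the KO libraries. The nuclear count was 7661443 and 12036024 in KO1 and KO2, and 6601963 and 6119609 in WT1 and WT2, a spread of 1.97 times (coefficient of variation 33.3%). Rows overlap one another, closely so on the mitochondrial genome, where a fragment can be counted in several rows. These sums are thus not numbers of separate fragments, and they leave out nuclear fragments outside the promoter rows.

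Expressed per nuclear fragment, both as these sums over rows, the mitochondrial count was 0.467 and 0.259 in KO1 and KO2. It was 0.526 and 0.542 in WT1 and WT2. The level of this ratio is not that of separate fragments in a library, so only its differences between libraries are described. The groups did not overlap, with KO lower. The WT libraries were close together, but KO2 lay far below KO1. On the log2 scale the ratio averaged −1.52 ± 0.60 in KO and −0.91 ± 0.031 in WT (SD, n = 2 each), a difference of −0.62 that was about the size of the SD between the KO libraries. Without KO2 the difference was −0.19, and without KO1 it was −1.04. With 2 libraries a group, the smallest two-sided p of an exact permutation test is 0.333, so none was run. In these bulk libraries, less mitochondrial DNA and more nuclear DNA cannot be told apart, nor can the KO and the depth of KO2.

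**Figure D1:**
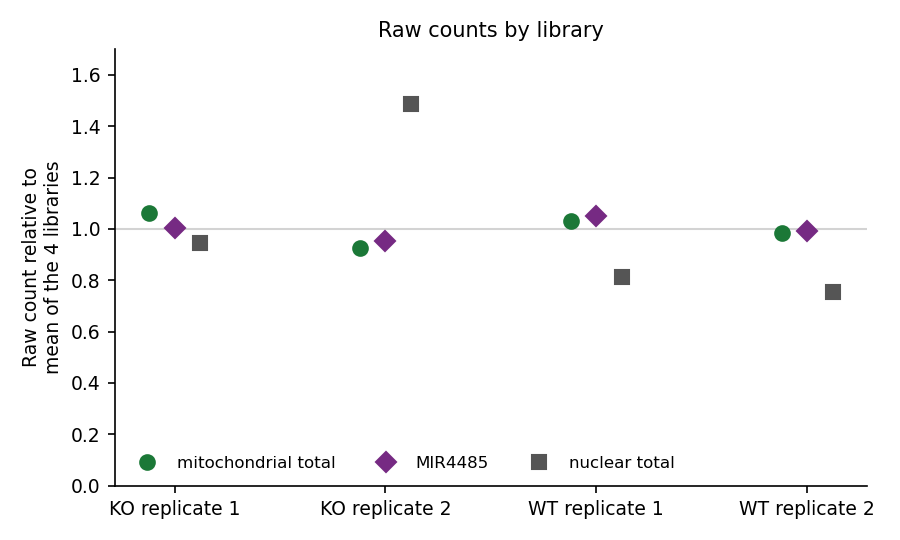
Raw fragment counts of the 37 mitochondrial rows summed, of MIR4485 and of all nuclear rows summed (y axis, each divided by its mean over the 4 libraries) in each library (x axis). The mitochondrial total stayed between 0.925 and 1.06 and MIR4485 between 0.954 and 1.05, while the nuclear total ran from 0.755 in WT2 to 1.49 in KO2.

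MIR4485 (Gene ID 100616263) held nearly the same number of fragments in each library, as the mitochondrial rows did. Its count was 411 in KO1, 391 in KO2, 431 in WT1 and 407 in WT2. The highest library lay 1.10 times above the lowest, with a coefficient of variation of 4.01%. KO2, the library with the most nuclear fragments, was thus the lowest for this nuclear gene. That was so in 0 of the other 19795 nuclear rows with a mean count of at least 50, and of all 19796 such rows KO2 was the highest library in 99.4%. As MIR4485 was chosen with its KO against WT difference known, these counts are a description.

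Set against mitochondrial fragments, MIR4485 was level, and set against nuclear fragments it was not. Per 1000000 mitochondrial fragments its level was 115 and 125 in KO1 and KO2, and 124 and 123 in WT1 and WT2. The means were 120.1 ± 7.51 in KO and 123.5 ± 1.03 in WT (SD, n = 2 each), a difference within the spread of the KO libraries. Per 1000000 nuclear fragments its level was 53.6 and 32.5 in KO, and 65.3 and 66.5 in WT. The KO libraries then lay below the WT libraries, and they lay apart from each other. The coefficient of variation over the 4 libraries was 3.92% on the mitochondrial scale and 28.9% on the nuclear scale.

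The rows next to MIR4485 on chromosome 11 followed the nuclear count. RNF141, which encodes a RING finger protein, held 406 and 716 fragments in KO1 and KO2, and 366 and 349 in WT1 and WT2. It was highest in KO2, where MIR4485 was lowest. IRAG1-AS1 held within 1 fragment of RNF141 in each library. ADM, which encodes the vasodilator peptide adrenomedullin, held 340 and 480 fragments in KO and 266 and 262 in WT. AMPD3, an AMP deaminase gene, held 41 and 61 fragments in KO and 49 and 26 in WT, and it too was highest in KO2. RNF141 had a log2 fold change of 0.061 (SE 0.079), against −0.63 (SE 0.082) at MIR4485, both KO against WT after scaling of the libraries by TMM (trimmed mean of M values).

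Among the other 1741 tested microRNA rows the log2 fold change ranged from −1.72 to 1.77 (median −0.15), and 188 lay below MIR4485. Most of those rows were sparse. Of the 168 with a mean count within 2 times that of MIR4485, the range was −0.33 to 1.10 (median 0.070), and 0 lay below it. MIR4485 was chosen with its lower value known, so nothing is read from its place among these rows.

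The likeness of profiles was measured as the root mean square difference of log2 CPM (counts per 1000000 fragments, TMM-scaled), each centred on its mean over the 4 libraries. From MIR4485, the mitochondrial rows lay at 0.038 to 0.056 (median 0.051). The 5 nearest of 11906 nuclear rows of like abundance lay farther away. They were KAT2A (0.229), GAMT (0.237), ZFPM1 (0.239), NDUFS7 (0.239) and ZCCHC14-DT (0.243). KAT2A, a histone acetyltransferase gene, held 250 and 295 fragments in KO and 224 and 206 in WT, so that even the nearest nuclear row was highest in KO2. These distances rest on 4 libraries that share one depth each, and they are a description.

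Along the mitochondrial genome the count per row was high and varied with the class of gene. The mean over the 4 libraries ran from 2134 fragments at TRNF to 151655 at COX1. The nuclear row with the highest mean count, TLE4, held 3738, and 36 of the 37 mitochondrial rows lay above it. TRNF, the tRNA gene for phenylalanine, ranked 45 among all rows of the table. No mitochondrial row was empty in any library.

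**Figure D2:**
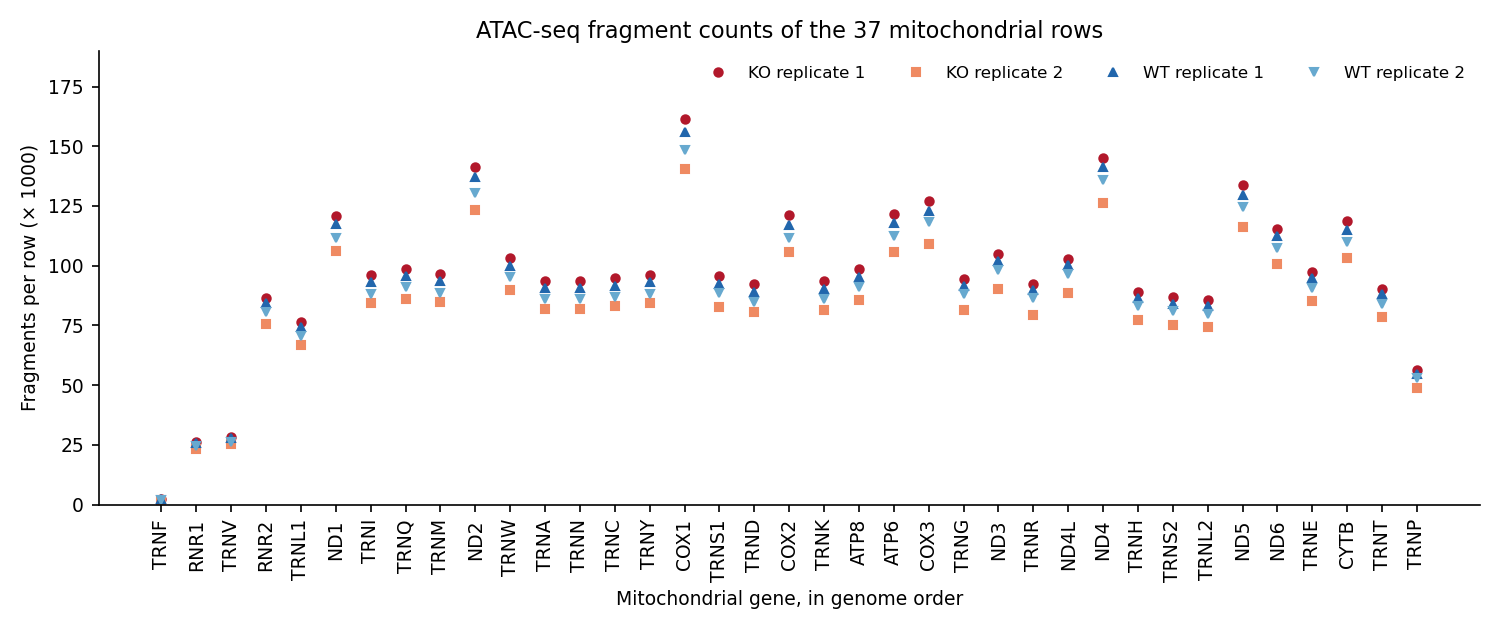
Raw fragment counts (y axis, in units of 1000) of the 37 mitochondrial rows in genome order (x axis), with a symbol for each library. In each row KO1 was highest and KO2 lowest, and the counts fell toward both ends of the row order, to 2134 fragments on average at TRNF.

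The protein-coding rows held the highest counts. COX1 (Gene ID 4512), the catalytic subunit of complex IV, held 161601 and 140504 fragments in KO1 and KO2, and 156048 and 148466 in WT1 and WT2, on average 4.499% of the mitochondrial total. ND4 (Gene ID 4538), a membrane subunit of complex I, held 145200 and 126064 in KO and 141171 and 135868 in WT (4.07%). ND2 (Gene ID 4536), also of complex I, held 141208 and 123118 in KO and 136929 and 130403 in WT (3.94%). In these rows KO1 lay above both WT libraries and KO2 below both, so that the groups overlapped. The other protein-coding rows had means of 92607 at ATP8, a subunit of complex V, to 126018 at ND5. Together the 13 rows took 45.1% of the mitochondrial total.

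The rRNA rows held less. RNR1 (Gene ID 4549), the gene of the 12S rRNA of the small ribosomal subunit, held 26284 and 23429 fragments in KO1 and KO2, and 25883 and 24552 in WT1 and WT2. RNR2 (Gene ID 4550), the gene of the 16S rRNA of the large subunit, held 86629 and 75793 in KO and 84475 and 80617 in WT. The order of the libraries was that of the protein-coding rows, and the rRNA rows took 3.17% of the mitochondrial total.

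The tRNA rows took the remaining 51.8%. TRNF (Gene ID 4558) held 2250 and 2009 fragments in KO and 2227 and 2050 in WT, or 0.0633% of the total. TRNV (Gene ID 4577), the valine tRNA gene between the rRNA genes, held 28119 and 25145 in KO and 27706 and 26311 in WT (0.796%). With RNR1 (0.743%), these were the rows with the smallest shares. The highest tRNA row was TRNW, for tryptophan, with a mean of 96957. The 19 tRNA rows other than TRNF, TRNV and TRNP lay between 72128 and that value.

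The library order was the same throughout: in 37 of 37 mitochondrial rows the count fell from KO1 through WT1 and WT2 to KO2. This order was seen in 13 nuclear rows of the table. The mitochondrial rows are not independent, since in 24 of 36 neighbouring pairs the counts differed by under 25% in every library.

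The differences between rows followed gene length. A promoter is defined in the methods as a 2 kb window around a transcription start site, given there for summarising tests over smaller windows and not for the promoter table, so layouts were compared with the order of the table's rows. Windows from 2000 bases before a gene's start to 2000 bases after it, cut at the end of a shorter gene, left 324 of 20705 neighbouring nuclear pairs out of order (1.56%). Symmetric windows of either width without that cut, among them the defined 2 kb window, left 447 out of order (2.16%). Windows of 1 kb on either side with the cut left 396 (1.91%), windows of the upstream part alone 1666 (8.05%), and those of the upstream part and the whole gene 1489 of 20670 (7.20%). Of the 36 mitochondrial pairs, 0 were out of order in each of the layouts that reach 2000 bases upstream and stop at the gene end or before it, and 4 or 5 in the others, so the mitochondrial rows do not tell those layouts from one another. Under the first layout, which is an inference, a mitochondrial row covers the gene and 2000 bases upstream, whichever strand the gene is on.

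Over the 32 rows other than TRNF, RNR1, TRNV, RNR2 and TRNP, each further base of gene length added 33.4 fragments. The fitted count at a gene length of 0 corresponded to 2584 bases at that rate. Pearson's r between count and length was 0.919 across these rows, which overlap and are no replicates. Dividing by the gene length plus 2000 bases lowered the coefficient of variation across rows from 18.5% to 6.96%. On this scale the median was 42.5 fragments per base for the tRNA rows and 42.3 for the protein-coding rows. The higher raw counts of the protein-coding rows were thus not seen per base.

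Some rows departed from the common density. TRNW was highest at 46.9 fragments per base. ND5, the longest gene, had 33.1, CYTB, the subunit of complex III, had 35.6, and TRNL1, a leucine tRNA gene next to RNR2, had 34.8. ND6, the protein-coding gene on the light strand, had 43.1. The 9 light-strand rows, ND6 and 8 tRNA genes, had a median of 43.2.

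The first 4 rows of the gene order and the last, TRNP, were lower. TRNT, the row just before TRNP, had 41.3 fragments per base. TRNF had 1.03 fragments per base, RNR1 8.48, TRNV 12.96, RNR2 23.0 and TRNP 25.7, when the full 2000 bases upstream were counted. The windows of these 5 rows would reach into or across the noncoding control region next to TRNF. So would those of the light-strand rows ND6 and TRNE, which had 43.1 and 44.5 fragments per base. Where CHM13 opens the circle in that region, and so how much of all these windows was counted, was not analysed here. If only bases from the start of TRNF onward are taken, the first 4 rows span 71, 1025, 1094 and 2653 bases and had 30.1, 24.4, 24.5 and 30.9 fragments per base. TRNP, the proline tRNA gene at the other end, held as many fragments as about 1252 bases at the median density. The levels per base of these 5 rows, and of ND6 and TRNE, are thus less certain than those of the other rows.

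**Figure D3:**
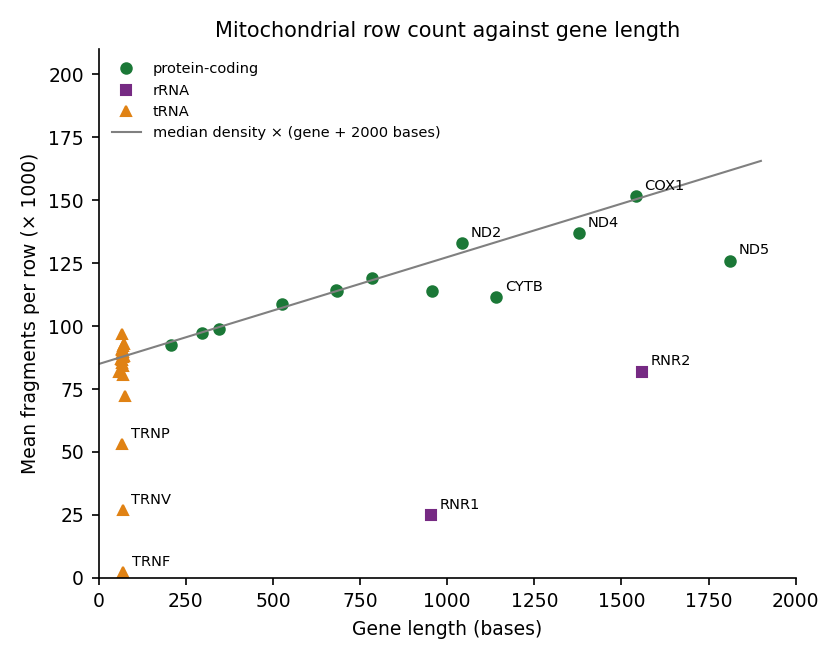
Mean fragment count over the 4 libraries (y axis, in units of 1000) against gene length (x axis, bases) for the 37 mitochondrial rows, coloured by class. The line is 42.5 fragments per base times the gene length plus 2000 bases. TRNF, RNR1, TRNV, RNR2 and TRNP lay below it. The density of the line is the median of the remaining 32 rows, so some of these lay below it too, among them ND5, TRNL1 and CYTB.

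When each row was taken as a share of its library's mitochondrial total, the 4 libraries were nearly alike. The log2 change in share from WT to KO ran from −0.022 to 0.015 over the 37 rows, and the largest change was 1.53% of a row's share. The median size of the change was 0.0089, against 0.0054 between the KO replicates and 0.0096 between the WT replicates. The largest change, 0.022 at TRNR, was smaller than the largest difference between the KO replicates (0.038, at TRNV) and between the WT replicates (0.054, at TRNF). TRNV and TRNF were among the rows with the smallest shares. At TRNR itself the replicate differences were 0.020 in KO and 0.014 in WT, below its change. The change is one between means of 2 libraries, whereas a replicate difference is one between single libraries. In 17 of the 37 rows the change exceeded both replicate differences of the same row. Neighbouring rows share fragments, so these rows are not independent. The like share over nuclear rows was not computed, and nothing is read from this count.

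The rows with the most positive change were TRNF (0.015), TRNY (0.014), TRNM (0.013) and TRNC (0.013), of which TRNM and TRNC were equal to that precision. TRNF's share was 0.0629% and 0.0645% in KO1 and KO2, and 0.0642% and 0.0618% in WT1 and WT2, so the groups overlapped. The counting error of its log2 change was 0.031, more than the change itself. TRNY, the tyrosine tRNA gene just before COX1, took 2.69% and 2.71% in KO and 2.68% and 2.66% in WT, without overlap.

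The rows with the most negative change lay together. TRNR, for arginine, took 2.58% and 2.54% of the mitochondrial total in KO1 and KO2, and 2.59% and 2.61% in WT1 and WT2 (log2 change −0.022). ND4L followed with −0.020 and ND3 with −0.017, both subunits of complex I that flank TRNR. In each of them KO2 was lowest and WT2 highest.

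By position, the rows with both KO shares above both WT shares numbered 13 and fell between TRNI and ATP6. Rows with both KO shares below numbered 11 and fell between ND3 and TRNP, and the other 13 rows overlapped. Over all 27647 tested rows the groups did not overlap in 50.6% on the CPM scale. In the run from ND3 to ND4L the shares fell from WT2 through WT1 and KO1 to KO2, while nuclear depth rose in the same order, and the part of depth in this was not tested. Because the windows overlap, neighbouring rows repeat the same fragments.

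**Figure D4:**
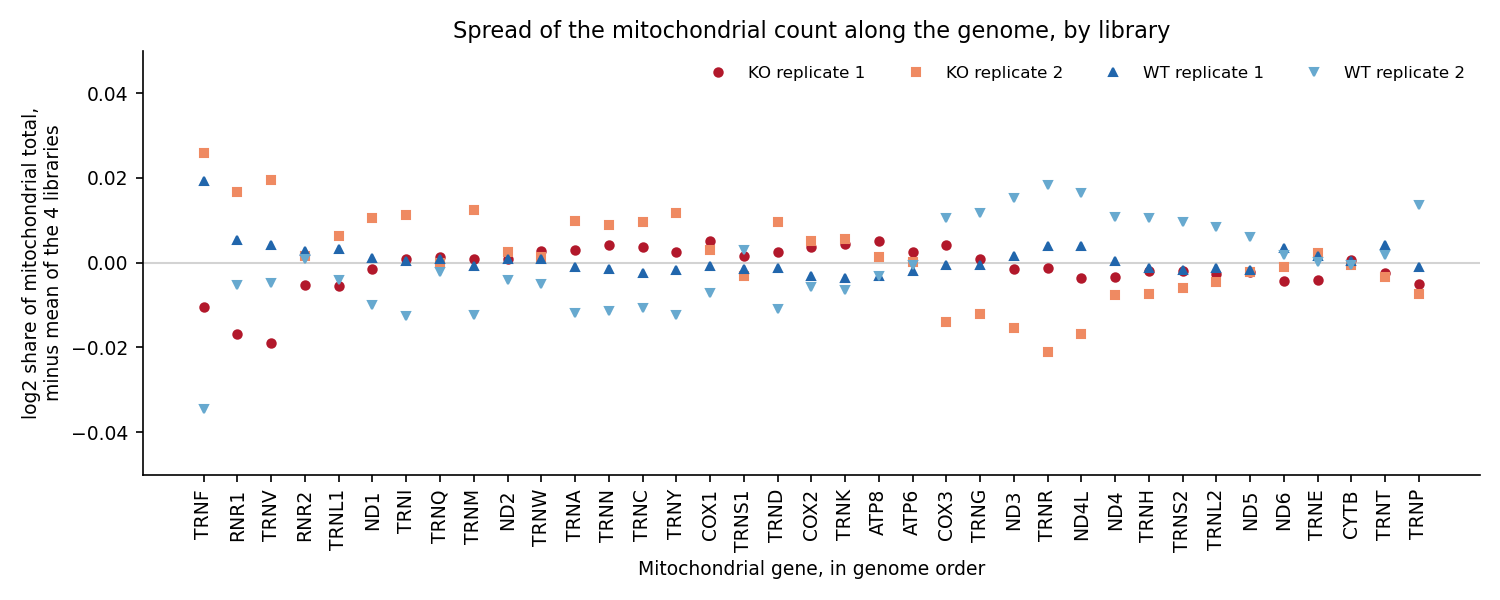
Log2 share of each row in its library's mitochondrial total, minus the mean of the 4 libraries (y axis), for the 37 mitochondrial rows in genome order (x axis). All points lay within 0.04 of 0. From TRNF to ATP6 KO2 lay above WT2, other than at TRNS1, and from COX3 to ND6 it lay below.

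Compared as whole profiles, the 37 counts of KO1 and KO2 differed with a chi-square of 1.89 per degree of freedom, and those of WT1 and WT2 with 1.76. Between groups it gave 0.731 for KO1 with WT1, 2.00 for KO2 with WT1, 2.88 for KO1 with WT2 and 6.75 for KO2 with WT2. The closest pair thus crossed the groups, and the pair farthest apart did as well. On nuclear rows the chi-square was 1.20 for KO1 with KO2 and 1.32 for WT1 with WT2. Between groups it ran there from 1.51 for KO1 with WT1 to 2.74 for KO2 with WT2. Overlapping rows repeat fragments and are not independent, so these values have no fixed reference and only their order is described.

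On the TMM scale, which is set by the nuclear majority of rows, all 37 mitochondrial rows had a log2 fold change below 0, between −0.53 and −0.50 (median −0.51), whereas loess offsets on abundance put 27 below and 10 above 0. In all of them both KO libraries lay below both WT libraries in CPM, as in 25.4% of all tested rows. TRNF, at 206 and 118 CPM in KO1 and KO2 and 231 and 227 CPM in WT1 and WT2, had a log2 fold change of −0.53 (SE 0.062). COX1 had −0.50 with an SE of 0.59, the largest SE of the 37. The fold changes thus covered a range of 0.034, while their SEs differed by far more.

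Of the 38 members, TRNF and MIR4485 had an adjusted p under 0.05 in the quasi-likelihood test of edgeR, against 4.45% of tested rows in either direction and 0.995% lower in KO. The members were chosen on this contrast, so nothing is read from that count. In the DESeq2 Wald test TRNF was not called and MIR4485 had no adjusted p. Neither was called with total count scaling or without KO2, while without KO1 all 38 were. Without KO2 the log2 fold change was −0.15 at TRNF and −0.13 at COX1, and the median of the 37 was −0.14. Without KO1 the median was −0.97. MIR4485 had −0.25 without KO2. With libraries scaled to the mitochondrial total instead, the median of the 37 rows was 0.00065 by construction and MIR4485 had −0.039.

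The WT peaks on the mitochondrial sequence were low in fold enrichment and varied in width. The authors' peak caller, run on both WT libraries together, gave 5 peaks there, on the CHM13 assembly. They cover chrM:221-5657, chrM:5849-6241, chrM:6856-7687, chrM:8330-10614 and chrM:12621-16471, in all 12798 bases, or 78.8% of the stretch from the first to the last. What the annotation of CHM13 holds at these positions was not analysed here. The first is 5437 bases wide and ranked 1 in width among 50883 peaks, with the widest nuclear peak at 4912 bases. The second, at 393 bases, lay below the nuclear median width of 533.5 bases, and the others lay above it.

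Fold enrichment, the ratio of signal at the summit to local background, was 1.66, 1.14, 1.21, 1.33 and 2.65 in the 5 peaks in order. The nuclear median was 5.91, and 4.89% of nuclear peaks lay below 2.65. The −log10 q-values were 632, 45.9, 94.6, 215 and 2246, against a nuclear median of 20.3. The last peak, with its summit at 15934, had the highest enrichment of the 5 and ranked 2 in the whole list by q-value. The longest gap without a peak spanned 2006 bases between the last 2 peaks. Set against the nuclear medians, all 5 peaks thus had stronger q-values and lower enrichment. Among the 5 themselves, the q-value was stronger where enrichment was higher.

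To set the mitochondrial counts beside the nuclear genes that maintain them, 35 promoters of genes for mitochondrial DNA replication, transcription and packaging, nucleotide supply and nuclear regulators were read from the same fit. All 35 were tested. In edgeR 2 were called higher in KO and 0 lower, against 3.45% and 0.995% of all tested rows. At an unadjusted p under 0.05 there were 5 higher and 1 lower, and the DESeq2 Wald test called 0, with 3 at an unadjusted p under 0.05. The share of all tested rows at an unadjusted p under 0.05 was not computed, so nothing is read from the unadjusted counts. The median log2 fold change of the list was 0.059, with 26 of 35 above 0, and that of all tested rows was −0.017, with 46.7% above 0.

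POLG2, which encodes the accessory subunit of the mitochondrial DNA polymerase, was more accessible in KO. It held 624 and 996 fragments in KO1 and KO2, and 430 and 377 in WT1 and WT2, which is 57.8 ± 0.829 against 43.2 ± 2.05 CPM (SD, n = 2 each). The groups did not overlap. On the log2 scale KO exceeded WT by 0.42 (SE 0.073, edgeR adjusted p 9.09e-06). The call was lost with total count scaling (adjusted p 0.233) and in the DESeq2 Wald test (adjusted p 0.0538).

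MTERF1, which encodes a transcription termination factor of the mitochondrial rRNA unit, held 468 and 692 fragments in KO and 325 and 285 in WT, or 41.7 ± 1.66 and 32.7 ± 1.55 CPM (SD, n = 2 each). KO exceeded WT by 0.35 on the log2 scale (SE 0.081, edgeR adjusted p 0.00306). The call was lost without KO2 (adjusted p 0.0837), without WT2 (adjusted p 0.0949) and with total count scaling (adjusted p 0.374). In the DESeq2 Wald test MTERF1 had no adjusted p. The neighbouring row of AKAP9 differed by 0.27 on the log2 scale (edgeR adjusted p 0.0116), and fragments shared between these rows were not separated. On the other side, FZD1, 2 rows away, differed by 0.23 (edgeR adjusted p 0.0166). The sparse row of LINC02932 between FZD1 and MTERF1 had −0.63 (edgeR adjusted p 0.176).

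The core genes of the list did not pass the test. TFAM, which packs mitochondrial DNA, differed by 0.072 on the log2 scale (SE 0.070, edgeR adjusted p 0.587). POLRMT, the mitochondrial RNA polymerase, had −0.067 (SE 0.083, adjusted p 0.685). POLG, the catalytic subunit of the DNA polymerase, had 0.080 (SE 0.065, adjusted p 0.4995), and its row held the same counts as that of POLGARF. By role, 1 of 13 replication genes and 1 of 9 transcription and packaging genes were called, and 0 of 8 nucleotide supply genes and 0 of 5 nuclear regulators, in which 1 gene each (TYMP and GABPA) had an unadjusted p under 0.05 in edgeR. The lowest value of the list was −0.21 at TYMP, the thymidine phosphorylase gene (adjusted p 0.232).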

How the data were processed

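ATAC-seq libraries were made by the Omni-ATAC method, with detergent and digitonin lysis. The authors used Trim Galore for trimming and bowtie2 for alignment to the telomere-to-telomere assembly CHM13, kept properly paired reads with a mapping quality of at least 30 and removed duplicates with Picard. The counts deposited by the authors are raw fragments per promoter and library. The submitters' processing notes also name featureCounts and Subread 2.0.6, without a role. The deposited WT peak list, called with MACS2 on both libraries together, holds the authors' fold enrichment, a ratio, and their −log10 q-value. A mapping quality limit removes fragments that align equally well to mitochondrial and nuclear copies, and duplicate removal limits the count of a small, deeply covered genome.

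Gene symbols, lengths and order came from a RefSeq table on GRCh38.p14, which matched 28763 of 28775 rows. Its coordinates served only for that and for comparing window layouts, and the strands of mitochondrial genes are general knowledge. Total counts ranged from 9435801 to 15152636 per library. Of 6 genes expected to be open in HEK293T, levels per 1000000 nuclear fragments ranged from 8.23 (EYA1) to 114 (VIM), against a median nuclear row of 21.1, and EYA1, PAX2 and NEFM lay below that median. Of 6 genes of other lineages, levels ranged from 2.24 to 8.06. Promoter counts do not show an edit, so the KO label was not checked with them.

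KO was compared with WT over 27647 rows in edgeR 4.0.16 (under R 4.3.3, with limma 3.58.1) by its quasi-likelihood F-test, legacy fit, after filterByExpr and TMM, without covariates. P-values are two-sided, Benjamini-Hochberg adjusted over all rows, and called under 0.05. The procedure was tested on simulated data. Errors are SD over 2 libraries per group, SE from the edgeR fit, and counting error for shares. That SE is the log2 fold change divided by the square root of F, without its sign. It draws on a dispersion estimated with information from all rows, so it is not the spread between replicates. In DESeq2 the SE was 0.39 at TRNF, 0.40 at COX1 and 0.34 at MIR4485. Members, lists and named-gene rules were chosen with earlier results of these data known. Named in full were the rRNA rows, TRNF, MIR4485, the 3 largest and 3 smallest shares, the 3 most positive and 3 most negative share changes, called list genes, TFAM, POLRMT and POLG, and the 5 nearest profiles. ND5, CYTB, TRNW, TRNL1, ATP8, ND6, TRNT, TRNP, TYMP, GABPA, AKAP9, FZD1, LINC02932 and the neighbours of MIR4485 were chosen after their values were seen. Alternatives covered scaling, filter, replicate block, edgeR 4 fit, DESeq2 1.42.0, threshold and leaving out each library. Same-numbered libraries deviated from their group means with a correlation of 0.021 over 19796 rows.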

Additional observations from a re-analysis of the deposited data

How the results depend on the processing

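When libraries were scaled to the mitochondrial total, an alternative chosen after seeing the data that sets the mitochondrial rows near 0 by construction, their median was 0.00065, TRNF had 0.015, COX1 0.0080 and MIR4485 −0.039. Loess offsets on abundance gave a median of −0.015 for the mitochondrial rows, with 0.062 at COX1, −0.64 at TRNF and 10 of 37 rows above 0. The other alternatives run kept the direction of the mitochondrial rows, MIR4485, POLG2 and MTERF1. Leaving out each library gave −0.97 to −0.14 for that median, −0.95 to −0.25 for MIR4485, −1.04 to −0.19 for the log2 ratio of mitochondrial to nuclear count and 0.024 to 0.072 for the range of share changes. The 1229 calls over all rows (954 higher) became 2249 (1551 higher) at an adjusted p under 0.1, 355 (316 higher) under 0.01, 20 (19 higher) with total count scaling, 388 (216 higher) with loess offsets, 787 (520 higher) where only rows averaging 50 fragments or more were tested and 6 (6 higher) with DESeq2. Leaving out each library gave 41 to 1637 calls, with 41 without KO2 and 230 without WT2. With the replicate number as a block there were 765 calls (553 higher), medians of −0.57 for the mitochondrial rows and −0.61 at MIR4485, and POLG2 and MTERF1 kept their calls, but the numbers do not pair the libraries. Of the maintenance list, total count scaling called 0 of 35 and DESeq2 called 0 of the 16 it gave an adjusted p, with 3 of 35 at an unadjusted p under 0.05 in each. The like share of all rows was not computed, so nothing is read from these unadjusted counts. Leaving out each library called 1 or 2, with 1 without KO2 and 1 without WT2. The cause was not tested for these settings. Total count scaling moved the median of all rows from −0.017 to 0.12. The list of nuclear rows named after mitochondrial genes had 0 rows in the table, so its alternatives were not run. With 2 libraries per group, depth and group could not be separated for the mitochondrial to nuclear ratio, and the count of TRNF limits its share to a counting error of 0.031 on the log2 scale.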

Other observations

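The nuclear rows whose profile over the 4 libraries lay nearest to the mitochondrial total, among 27609 searched, were sparse. DISC2 held 31 and 27 fragments in KO1 and KO2 and 30 and 29 in WT1 and WT2, at a root mean square distance of 0.029 in centred log2 CPM. OR1A2, MIR4670, MIR676 and PCDHA9 followed at 0.041 to 0.051, with 12 to 31 fragments per library. In each of these rows the libraries differed by at most 6 fragments, and MIR4485, which was searched as a member and not as a nuclear row, held over 10 times as many fragments.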
